A study of Mus musculus with 13 samples.

Results

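The 10 genes described here encode Polycomb repressive complex 2 (PRC2) in mouse: the catalytic subunits Ezh1 and Ezh2, the core subunits Eed, Suz12 and Rbbp4, the accessory subunits Mtf2, Phf1 and Phf19 of the form called PRC2.1, and the accessory subunits Jarid2 and Aebp2 of the form called PRC2.2. They were chosen as named subunits of the complex, with earlier results of these data known, and each matched 1 of the 38377 gene identifiers in the count table. RNA was measured by bulk sequencing in 13 libraries of female mouse stem cell lines. Extraembryonic endoderm (XEN) cells, grown in DMEM with serum, were wild type (2 libraries), deleted for Xist on the paternal X (dXist, 3), wild type treated with 20 uM 5-aza-2'-deoxycytidine (Aza), an inhibitor of DNA methylation (2), or dXist and treated (2). Epiblast stem cells (EpiSC), kept with Activin and FGF2 on matrigel, made up 2 wild-type libraries and 2 from cells with a heterozygous deletion of Xist (also called dXist). The study asked what loss of Xist does in both cell types. Neither treatment time nor the number of clones behind a group is given in the sources used here, and nothing says that replicates were separate cultures, so each p-value reflects the spread among these libraries only, and that spread may be technical.

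PRC2 places methyl groups on lysine residues of histone H3 and so makes H3K27me3, a mark of repressed developmental genes and of the inactive X chromosome, where it builds up after Xist RNA coats the chromosome. Ezh1 and Ezh2 are alternative catalytic subunits, of which Ezh2 is the more active methyltransferase and is typical of dividing cells. The Polycomb-like proteins Mtf2, Phf1 and Phf19 bring PRC2 to CpG islands, whereas Jarid2 and Aebp2 link it to histone H2A ubiquitinated by PRC1.

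Levels are given as CPM, the count relative to library size, after TMM scaling over all 13 libraries. Each log2 change uses the scaling of its own fit. Total counts ran from 5848454 to 35247432 per library. In 4 libraries (both treated wild-type XEN libraries, and library 2 of each EpiSC genotype) mitochondrial rRNA and Rn7sk took 10.4% to 13.5% of counts, against 0.0152% to 0.279% in the other 9. The former are called total-like and the latter polyA-like, since such RNAs lack long poly(A) tails, and the labels do not say which kit made which library. Xist was at 1630 ± 99.6 CPM (SD, n = 2) in wild-type XEN and 516 ± 451 (n = 2) in wild-type EpiSC, and at 2.87 ± 1.96 (n = 3) in dXist XEN and 0.355 ± 0.132 (n = 2) in dXist EpiSC. The treated libraries labelled dXist held 13.3 and 232.8 CPM. Of 14 extraembryonic endoderm markers, all 14 averaged over 1 CPM in every XEN group, and all 14 epiblast markers did so in both EpiSC groups. This level alone does not separate the cell types. It was also passed by 10 and 9 endoderm markers in wild-type and dXist EpiSC, and by 4 to 6 epiblast markers in the XEN groups.

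All 10 genes are autosomal. On GRCm38 the 5 genes that differed between the wild-type cell types span chromosome 11 from 101191115 to 101226463 (Ezh1, ENSMUSG00000006920), 17 from 26933052 to 26937908 (Phf1, ENSMUSG00000024193), 2 from 34893757 to 34914026 (Phf19, ENSMUSG00000026873), 5 from 108065674 to 108109004 (Mtf2, ENSMUSG00000029267) and 13 from 44729474 to 44921643 (Jarid2, ENSMUSG00000038518).

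The promoters of Ezh1 and Ezh2 and of Phf1 and Phf19 are shown because the first pair are the alternative catalytic subunits and the second pair are the Polycomb-like genes with the largest changes, in opposite directions, between the wild-type cell types. The windows run from 250 bases before to 20 bases after the RefSeq start, on GRCm38.p6, read 5′ to 3′ on the gene's strand. They lie at chr11:101226444-101226713 on the minus strand (Ezh1), chr6:47595011-47595280 minus (Ezh2), chr17:26932877-26933146 plus (Phf1) and chr2:34913957-34914226 minus (Phf19). Capitals mark a match to an E2F-type site, searched as TTTCCCGC, TTTGGCGC, TTTCGCGC and TTTGCCGC on both strands. E2F factors drive genes of cell division.
Ezh1: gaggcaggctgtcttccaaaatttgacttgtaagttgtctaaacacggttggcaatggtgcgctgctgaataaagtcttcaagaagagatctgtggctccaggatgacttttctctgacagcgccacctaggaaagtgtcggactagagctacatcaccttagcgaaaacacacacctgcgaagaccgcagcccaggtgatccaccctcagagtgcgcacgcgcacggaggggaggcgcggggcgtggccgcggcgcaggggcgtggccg
Ezh2: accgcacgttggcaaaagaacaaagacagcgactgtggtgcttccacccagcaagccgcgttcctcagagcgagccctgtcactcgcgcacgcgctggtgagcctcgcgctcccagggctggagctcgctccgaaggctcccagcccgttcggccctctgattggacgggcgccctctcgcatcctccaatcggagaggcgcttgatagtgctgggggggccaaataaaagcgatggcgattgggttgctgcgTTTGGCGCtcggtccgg
Phf1: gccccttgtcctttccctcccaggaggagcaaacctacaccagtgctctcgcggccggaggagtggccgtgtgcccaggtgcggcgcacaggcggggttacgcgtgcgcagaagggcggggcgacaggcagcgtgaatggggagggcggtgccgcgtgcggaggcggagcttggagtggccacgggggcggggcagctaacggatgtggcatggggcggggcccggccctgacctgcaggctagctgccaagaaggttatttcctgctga
Phf19: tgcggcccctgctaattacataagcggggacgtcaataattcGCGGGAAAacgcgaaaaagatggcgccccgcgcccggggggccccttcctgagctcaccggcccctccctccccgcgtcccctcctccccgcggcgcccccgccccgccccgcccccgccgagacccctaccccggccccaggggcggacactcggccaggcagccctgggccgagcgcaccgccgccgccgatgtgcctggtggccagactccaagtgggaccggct
The Ezh2 window held TTTGGCGC and the Phf19 window GCGGGAAA, the reverse complement of TTTCCCGC, and no match was found in the Ezh1 or Phf1 window. All 10 genes matched the RefSeq table, with 14 windows in all. A site was held by 3 windows, of 3 genes, Suz12 being the other. Among all 32851 promoter windows of this length, 664 (2.02%) held one. Each searched site contains CG, and the Ezh2, Suz12 and Phf19 windows held 27, 41 and 32 CG dinucleotides, against a median of 6 over all windows. Windows of like CG content were not compared. A match describes letters in these windows only.

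Within wild-type cells, members were set against each other by CPM per kilobase of exon. In XEN, Suz12 led at 45.3 ± 5.48 CPM per kb (SD, n = 2), followed by Rbbp4 at 27.5 ± 4.73. Ezh2 (15.5 ± 2.93), Eed (15.2 ± 4.12), Mtf2 (12.9 ± 2.27) and Ezh1 (12.1 ± 3.49) came next, and neighbours among these 4 differed by less than the larger of their SDs. Phf19 was last at 0.0979 ± 0.0438 CPM per kb, from 10 and 19 counts in the libraries. In wild-type EpiSC the same scale gave Suz12 36.8 ± 21.8, Mtf2 27.4 ± 11.0, Rbbp4 25.5 ± 4.73, Ezh2 22.5 ± 17.9, Eed 20.3 ± 9.80 and Jarid2 19.7 ± 8.36, an order within which no neighbours differed beyond the larger of their SDs. The order near the top depends on the length used: over the median coding transcript, Rbbp4 led in wild-type XEN (54.5 CPM per kb, Suz12 51.6) and Ezh2 in wild-type EpiSC (55.2 CPM per kb). Ezh1, Phf1 and Phf19 were the 3 lowest in wild-type EpiSC with either length.

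**Figure D1:**
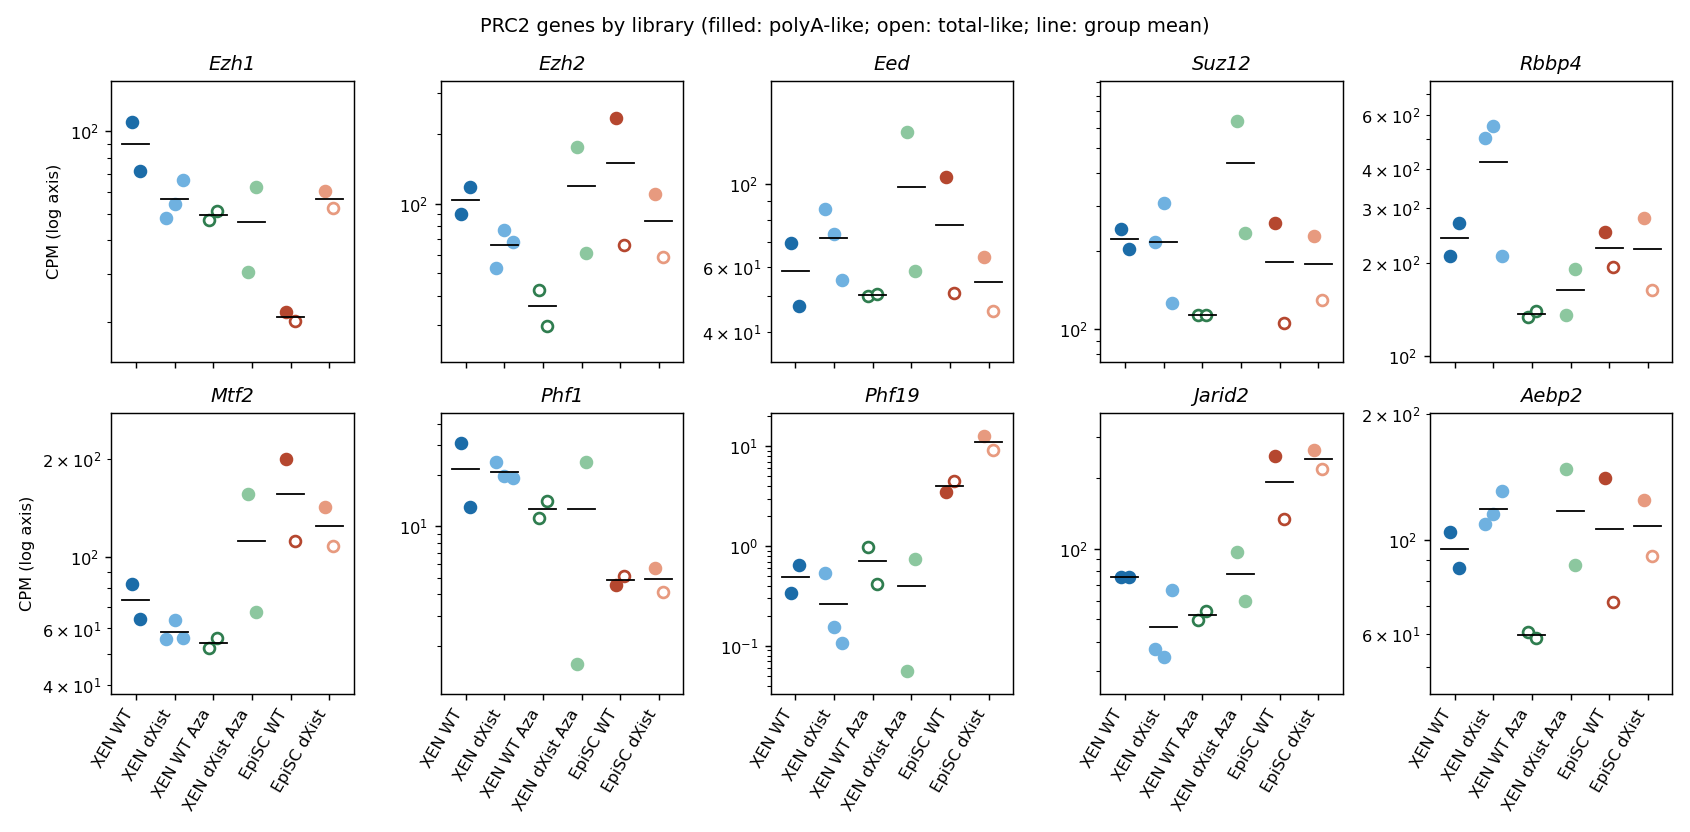
Level of each of the 10 PRC2 genes in CPM (log axis) in the 13 libraries, by group. Each point is 1 library, filled for polyA-like and open for total-like libraries, and the line is the group mean; Ezh1 is lowest in wild-type EpiSC, Phf1 is low in all EpiSC libraries and in treated dXist XEN library 1, and Phf19 exceeds 1 CPM in the EpiSC libraries only.

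Wild-type EpiSC and wild-type XEN differed in 5 of the 10 members. Ezh1 and Phf1 fell in EpiSC, while Phf19, Mtf2 and Jarid2 rose. In bulk RNA, fewer cells with a transcript and less of it per cell cannot be told apart. By edgeR's quasi-likelihood test with Benjamini-Hochberg adjustment over all genes, 3 members were higher and 2 lower. Among all 19733 genes tested 30.8% were called, 16.8% higher and 14.1% lower. DESeq2 called the same 5 members (37.9% of all genes). The libraries of the 2 cell types did not overlap for these 5 members, against 34.7% of all genes without overlap and higher and 31.4% without overlap and lower. The median log2 change was 0.33 over the 10 members and 0.13 over all genes tested.

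Ezh1, the catalytic subunit typical of resting cells, was at 108.1 and 71.4 CPM in wild-type XEN and at 21.7 and 20.1 CPM in wild-type EpiSC. The groups did not overlap, and the mean was 4.29-fold lower in EpiSC (log2 change -2.04, SE 0.32, edgeR adjusted p = 0.00185). Ezh2 was at 89.8 and 117.5 CPM in wild-type XEN and 234.8 and 66.0 CPM in wild-type EpiSC, where the polyA-like library lay above and the total-like library below both XEN libraries. Its log2 change was 0.58 with a 95% interval of -0.57 to 1.73, too wide to place a change. As a share of Ezh1 plus Ezh2 in CPM per kb of exon, Ezh1 made up 51.9% and 35.3% in wild-type XEN and 7.67% and 21.5% in wild-type EpiSC, again without overlap. Over the median coding transcript the shares were lower, at 43.9% and 28.3% against 5.67% and 16.5%, and did not overlap either.

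The other core subunits did not pass the test. Eed, which binds H3K27me3 and spreads the mark, was at 69.4 and 47.1 CPM in wild-type XEN and 104.1 and 51.0 in wild-type EpiSC. Suz12, the scaffold on which the accessory subunits assemble, was at 243.1 and 204.8 CPM against 258.3 and 105.8. Rbbp4, a histone-binding subunit shared with other chromatin complexes, was at 210.8 and 269.3 CPM against 252.0 and 193.5. In each of these 3 genes the ranges of the groups overlapped. Together with Ezh2 and Aebp2 their log2 changes ran from -0.26 to 0.58, with 95% intervals reaching from -1.40 to 1.73.

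Among the Polycomb-like genes, Mtf2 was at 82.4 and 64.1 CPM in wild-type XEN and 200.6 and 112.0 CPM in wild-type EpiSC, a 2.13-fold rise (log2 change 1.14, SE 0.33, edgeR adjusted p = 0.0276). Phf1 was at 30.7 and 12.9 CPM against 4.51 and 5.14, a 4.52-fold fall (-2.13, SE 0.49, edgeR adjusted p = 0.0109). Phf19 was at 0.337 and 0.649 CPM against 3.50 and 4.49, 8.10-fold higher (3.09, SE 0.80, edgeR adjusted p = 0.0182). None of the 3 overlapped between the groups. Of the summed CPM per kb of these 3 genes, Phf1 made up 37.7% and 24.6% in wild-type XEN and 3.48% and 6.70% in wild-type EpiSC. Mtf2 was the main one in both cell types, at 62.0% and 74.6% in XEN and 94.7% and 89.3% in EpiSC.

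Of the PRC2.2 genes, Jarid2 was at 75.8 CPM in both wild-type XEN libraries and at 249.1 and 134.2 CPM in wild-type EpiSC, 2.53-fold higher (log2 change 1.39, SE 0.40, edgeR adjusted p = 0.0270). Aebp2, which stabilises the complex, was at 104.6 and 85.9 CPM against 141.0 and 71.4, with overlapping ranges. Jarid2 made up 42.4% and 47.2% of Jarid2 plus Aebp2 in CPM per kb of exon in wild-type XEN and 64.2% and 65.6% in wild-type EpiSC. These shares depend on the length used. Over the median coding transcript, Jarid2 and Aebp2 averaged 15.1 and 37.0 CPM per kb in wild-type XEN. In wild-type EpiSC they averaged 38.2 and 41.2, so by that length Jarid2 was the lower in both. By exon length, the balance of the 2 accessory sets overlapped between the cell types. Jarid2 and Aebp2 took 44.1% and 52.3% of all 5 accessory genes in wild-type XEN and 51.8% and 48.9% in wild-type EpiSC.

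**Figure D2:**
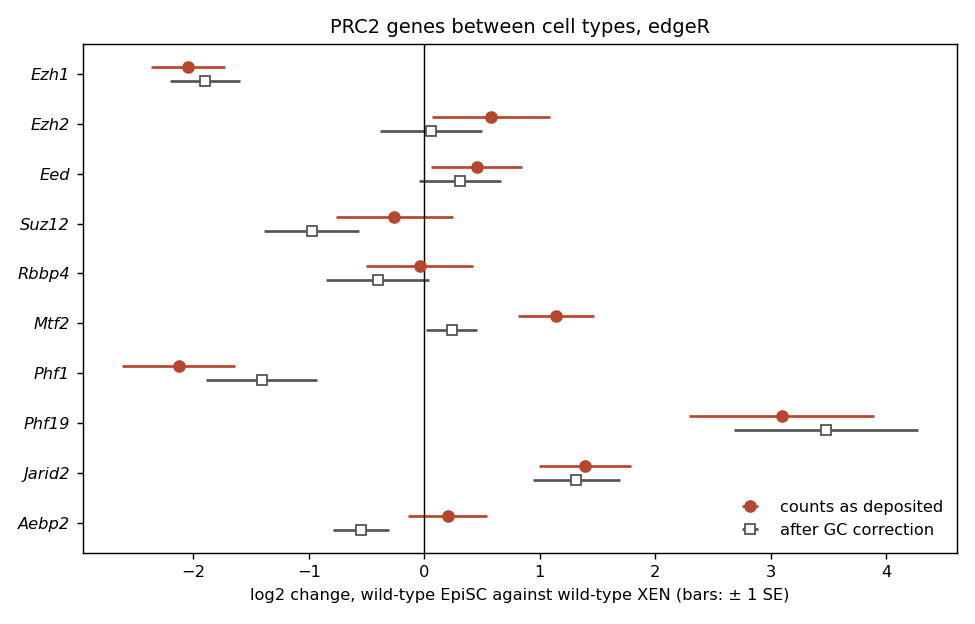
Log2 change of each PRC2 gene in wild-type EpiSC against wild-type XEN (points, bars ± 1 SE), from counts as deposited and after a correction for GC content. Ezh1 lies at -2.04 and -1.90, whereas Mtf2 moves from 1.14 to 0.24.

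How firmly these 5 calls stood differed by gene. The levels of library 1 of wild-type EpiSC fell with GC content across 9669 genes (Spearman -0.45), and those of library 2 of wild-type XEN rose with it (0.52). After a GC correction, Ezh1 (-1.90, edgeR adjusted p = 0.00252), Jarid2 (1.32, edgeR adjusted p = 0.0305) and Phf19 (3.48, edgeR adjusted p = 0.0122) passed, against 29.3% of all genes. Mtf2 (0.24, edgeR adjusted p = 0.431, GC 38.2%) and Phf1 (-1.41, edgeR adjusted p = 0.0557, GC 58.6%) did not. Without library 1 of wild-type XEN only Ezh1 passed, against 18.1% of 21038 genes, and Mtf2, Jarid2, Phf19 and Phf1 had log2 changes of 1.37, 1.43, 2.73 and -1.31. Without library 1 of wild-type EpiSC only Ezh1 and Phf19 passed, against 14.4% of 21165 genes. Ezh1 passed in all 11 alternatives run.

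**Figure D3:**
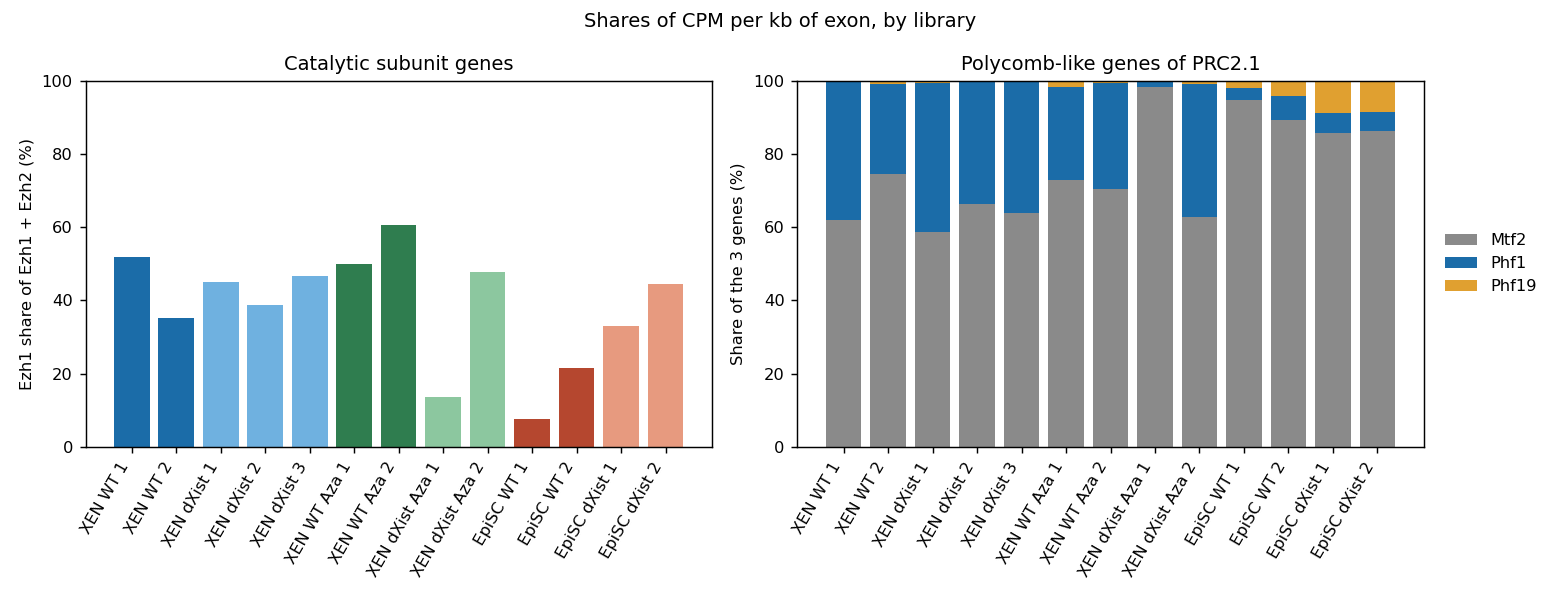
Left, Ezh1 as a percentage of Ezh1 plus Ezh2, and right, Mtf2, Phf1 and Phf19 as percentages of their sum, both from CPM per kb of exon, with 1 bar per library. Ezh1 takes 7.67% and 21.5% in wild-type EpiSC against 33.0% and 44.4% in dXist EpiSC, and the Phf1 segment is narrow in all 4 EpiSC libraries and in treated dXist XEN library 1.

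Other genes of the pathway differed between the wild-type cell types as well, where 16.8% of all genes were called higher and 14.1% lower. The list counts that follow were not tested against these shares. Of 8 further PRC2-associated genes tested, 1 rose and 2 fell in EpiSC: Epop, a PRC2.1 cofactor, fell (17.5 ± 3.18 against 254.5 ± 121.1 CPM, log2 change -3.77), Skida1 rose (24.8 ± 4.45 against 0.153 ± 0.0735 CPM, 7.37), and the X-linked Rbbp7, the close relative of Rbbp4, fell (307.3 ± 73.8 against 845.5 ± 152.4 CPM, -1.41). Kdm6a, the X-linked demethylase that removes the mark made by PRC2, rose (134.3 ± 30.6 against 43.3 ± 7.07 CPM, 1.70, edgeR adjusted p = 0.00606). Of 27 PRC1 and PR-DUB genes 7 rose and 5 fell. Pcgf5, a subunit of variant PRC1, fell (-3.71), as did Cbx8 (-3.44), and Phc1 rose (3.24). Among 17 genes of the other complexes that hold Rbbp4, 3 rose and 2 fell, and of 30 cell cycle and E2F target genes 1 rose (Ccne1, 1.33) and 1 fell (Cdt1, -2.54).

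Of 50 classical PRC2 target genes, 48 were matched and 35 tested, of which 17 rose and 5 fell in EpiSC. Among all genes tested, 16.8% were called higher and 14.1% lower. The filter kept 24 of the targets in the fit of XEN libraries and 26 in that of EpiSC libraries. Genes silent in 1 cell type passed it through the other and could move 1 way only, so these counts are partly set by the filter. Tbx3, a T-box factor, fell (0.336 ± 0.0162 against 47.4 ± 8.46 CPM, log2 change -7.07). Hoxa9 and Foxd3 had 0 counts in both wild-type XEN libraries and 27.8 ± 14.7 and 9.15 ± 2.06 CPM in EpiSC. The other marker lists moved with cell type: 13 of 14 endoderm markers fell, 12 of 14 epiblast markers rose, and 7 of 8 fibroblast markers rose, their summed level being 17.7 to 18.2 CPM in wild-type XEN and 646 to 814 CPM in wild-type EpiSC. The part of these marker differences in the member changes was not tested.

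Deletion of Xist in XEN cells moved no member past the threshold by edgeR (0 of 10; 0.0217% of 18393 genes). At an unadjusted p under 0.05 the count was 0 of 10 (10.7% of all genes), and DESeq2 called 0 (2.75%). Xist itself, with a log2 change of -9.155, also missed edgeR's threshold (edgeR adjusted p = 0.0602; DESeq2 adjusted p = 4.52e-23). The lack of edgeR calls here thus does not show that members were unchanged. The libraries of the genotypes did not overlap for 5 members, 1 higher and 4 lower in dXist, against 13.9% and 14.6% of all genes. Ezh1 was at 48.3, 54.3 and 66.6 CPM in dXist XEN, all below the wild-type values of 108.1 and 71.4 (log2 change -0.69, SE 0.37, edgeR adjusted p = 0.541). Ezh2 was at 52.8, 77.2 and 68.0 CPM, all below 89.8 and 117.5 (-0.66, SE 0.43, edgeR adjusted p = 0.606). The Ezh1 share of their sum lay within the wild-type range, at 45.1%, 38.7% and 46.8%.

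The remaining non-overlapping members in XEN were Jarid2, Mtf2 and Aebp2. Jarid2 was at 37.4, 34.4 and 66.8 CPM in dXist XEN, below 75.8 in both wild-type libraries (log2 change -0.72, SE 0.37, edgeR adjusted p = 0.517). It took 25.7%, 23.2% and 34.1% of Jarid2 plus Aebp2 in CPM per kb of exon. Mtf2 was at 55.8, 63.9 and 55.9 CPM and lay just below the wild-type range, and Aebp2 was at 109.6, 115.7 and 131.1 CPM and lay above it. Rbbp4 was at 505.0 and 551.5 CPM in dXist libraries 1 and 2 and at 210.0 CPM in library 3, next to 210.8 and 269.3 in wild type (0.80, SE 0.43, edgeR adjusted p = 0.534). Library 3 thus differed from the other dXist libraries in Rbbp4, Jarid2 and Suz12 (218.0, 306.7 and 126.5 CPM). The X-linked genes Rbbp7 (502.3, 455.3 and 810.8 CPM) and Kdm6a (76.9, 86.3 and 47.5 CPM) split the same way between library 3 and the others. None of the pathway and marker lists had a called gene. A positive change was seen in 8 of 30 cell cycle and E2F target genes (median -0.36), 6 of 24 classical PRC2 targets (median -1.16) and 2 of 8 epiblast markers (median -1.07). Over all genes it was 9201 of 18393 (median 0.00099). Other lists were level or mostly positive: 6 of 8 further PRC2-associated genes (median 0.42), 10 of 17 genes of other Rbbp4 complexes, 13 of 26 PRC1 and PR-DUB genes and 7 of 14 endoderm markers. Fibroblast (1 of 3), trophoblast (1 of 4) and germ layer markers (1 of 4) were mostly negative.

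In EpiSC, Ezh1 and Phf19 stood above wild type in both dXist libraries. Ezh1 was at 60.4 and 52.2 CPM against 21.7 and 20.1, 2.69-fold higher (log2 change 1.45, SE 0.24, edgeR adjusted p = 0.176). Phf19 was at 12.7 and 9.28 CPM against 3.50 and 4.49, 2.76-fold higher (1.48, SE 0.34, edgeR adjusted p = 0.273). Neither passed edgeR's threshold, and nor did any of the 17132 genes tested (0%), in a fit of 4 libraries. That includes the deleted gene Xist (log2 change -10.41, edgeR adjusted p = 0.102; DESeq2 adjusted p = 7.35e-48). At an unadjusted p under 0.05 the same 2 members stood out (10.2% of all genes), and DESeq2 called both (2.87%), with adjusted p of 0.00038 for Ezh1 and 0.0478 for Phf19. They were the 2 members whose groups did not overlap, both higher, against 20.6% of all genes.

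Each EpiSC genotype had 1 polyA-like and 1 total-like library, so the change could be read within each kind. For Ezh1 the log2 change was 1.47 between the polyA-like libraries and 1.38 between the total-like ones. For Phf19 the values were 1.86 and 1.05. Across all 13 libraries with a library type term, the changes were 1.43 for Ezh1 (edgeR adjusted p = 0.755) and 1.46 for Phf19 (edgeR adjusted p = 1), and neither was called. In the 4 EpiSC libraries with library type as a term, chosen after the data were seen and leaving 1 residual degree of freedom, edgeR called Ezh1 (1.45, SE 0.30, adjusted p = 4.75e-05) and Phf19 (1.49, SE 0.37, adjusted p = 0.00142), higher in both, and no other member; 4.91% of all genes were called higher. With a GC correction added, the changes were 1.38 and 1.29, and both passed (14.8% of all genes called, 5.83% higher). Ezh2 was at 110.3 and 58.7 CPM in dXist EpiSC against 234.8 and 66.0, with a change of -1.09 between polyA-like libraries and -0.17 between total-like ones, and was not called. The Ezh1 share of Ezh1 plus Ezh2 was 33.0% and 44.4%, above both wild-type EpiSC values (7.67% and 21.5%), with wild-type XEN at 51.9% and 35.3%. Over the median coding transcript it was 26.2% and 36.6%, against 5.67% and 16.5% in wild-type EpiSC.

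The other members gave no call in dXist EpiSC. Jarid2 was at 264.1 and 217.8 CPM, Mtf2 at 142.1 and 107.6, Suz12 at 229.1 and 129.1, Rbbp4 at 278.1 and 163.1, Eed at 63.5 and 45.6, Aebp2 at 124.5 and 91.6 and Phf1 at 5.71 and 4.14 CPM. In each of these 7 genes the range overlapped that of wild type. Phf19 took 8.69% and 8.40% of the Polycomb-like genes in CPM per kb, against 1.87% and 4.05% in wild type, and passed Phf1 (5.63% and 5.42%) in both dXist libraries.

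With library type as a term in the 4 EpiSC libraries, lists outside the members also held called genes. Of all genes in that fit, 4.91% were called higher and 6.53% lower. Of 26 classical PRC2 target genes tested, 1 rose and 14 fell, against 6.53% of all genes called lower: Hoxb13 rose (3.94 ± 0.273 against 0.0810 ± 0.0490 CPM), and Hoxb4 (1.02 ± 0.0945 against 12.4 ± 5.23) and Pax2 (0.784 ± 0.554 against 11.3 ± 10.9) fell. Of 27 PRC1 and PR-DUB genes, Cbx7 (log2 change 1.33) and Cbx6 (1.02), readers of the PRC2 mark, rose and Asxl3 fell (-2.05). Of 8 further PRC2-associated genes, Skida1 fell (-1.59). Alongside, 7 of 8 fibroblast markers fell, their summed level being 155 to 234 CPM in dXist against 646 to 814 CPM in wild type, with Lum at 0 counts in dXist, and 3 of 12 endoderm markers fell (Col4a1, Col4a2 and Cubn), as did 2 of 6 germ layer markers (Sox1 and Kdr). Of 14 epiblast markers 3 rose (Utf1, Otx2 and Pou5f1), while 6 of the 14 had a positive change (median -0.03), and 1 of 4 trophoblast markers rose (Tfap2c). The part of fibroblast-like RNA in the change of Ezh1, Phf19 and the targets was not tested.

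**Figure D4:**
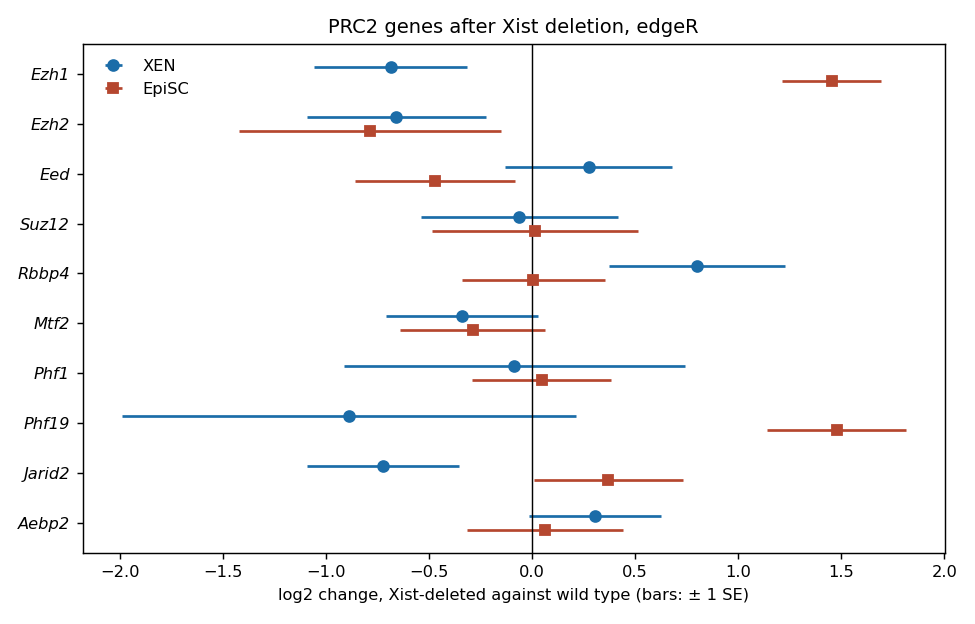
Log2 change of each PRC2 gene in Xist-deleted against wild-type cells (points, bars ± 1 SE) in XEN and in EpiSC. Ezh1 lies at -0.69 in XEN and 1.45 in EpiSC, and no point passed edgeR's threshold.

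The difference between the cell types in the response to deletion was tested as an interaction. edgeR called 0 of 10 members (0.0101% of 19733 genes), with Ezh1 and Phf19 under an unadjusted p of 0.05 (10.3% of all genes), and DESeq2 called 1, Ezh1 (2.27%). For Ezh1 the interaction was 2.15 on the log2 scale (SE 0.42, edgeR adjusted p = 0.166; DESeq2 adjusted p = 0.0014). For Phf19 it was 2.35 (edgeR adjusted p = 0.476) and for Jarid2 1.10, neither called. Ezh1 was thus lower than wild type in 3 of 3 dXist XEN libraries and higher in 2 of 2 dXist EpiSC libraries. Without library 3 of dXist XEN the Ezh1 interaction was 2.28 and passed (edgeR adjusted p = 0.0241), as did 3.44% of 19468 genes. On leaving out each of the other 8 libraries in turn it ran from 1.78 to 2.40, with edgeR adjusted p of 0.221 to 0.802.

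Aza treatment of wild-type XEN cells called no member by edgeR (0 of 10; 0.582% of 18393 genes). Ezh2 alone was under an unadjusted p of 0.05 (12.4% of all genes), and DESeq2 called 0 (3.51%). Of the 10 members, 1 had a positive change and 9 a negative one, where 8807 of 18393 genes had a positive change. In CPM, 7 members lay below the untreated range without overlap, against 35.2% of all genes. Ezh2 was at 42.5 and 29.7 CPM, 2.87-fold below untreated wild type in mean (log2 change -1.36, SE 0.49, edgeR adjusted p = 0.312). The scaling of CPM over 13 libraries gave a larger fall here than the XEN fit did. Suz12 was at 113.3 and 113.2 CPM, below 243.1 and 204.8 (-0.83), and Ezh1 at 47.5 and 50.9 CPM (-0.71). Rbbp4, Mtf2, Jarid2 and Aebp2 were the other 4 below the untreated range, at 133.2 and 139.3, 52.3 and 56.1, 49.6 and 54.0, and 60.5 and 58.7 CPM. Both treated wild-type libraries were total-like and both untreated ones polyA-like, so the effect of Aza and that of library type cannot be told apart within XEN. With a library type term in a fit over 13 libraries, the log2 change was -0.18 for Ezh2 and 0.035 for Suz12. Only the EpiSC groups hold both kinds of library, so that term is estimated from EpiSC and carried over to XEN. Whether it holds in XEN was not tested. Fitted on these 4 libraries alone, Ezh2 passed (-1.32, edgeR adjusted p = 0.0485), as did 6.05% of 15321 genes.

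Aza treatment of dXist XEN cells also called no member by edgeR (0 of 10; 0.0761% of genes). The treated libraries are used as labelled, although their Xist levels of 13.3 and 232.8 CPM lay above the 1.21 to 5.02 CPM of untreated dXist XEN. Rbbp4 and Mtf2 were under an unadjusted p of 0.05 (26.8% of all genes), and DESeq2 called 1, Rbbp4 (15.8%). Rbbp4 was at 136.0 and 190.3 CPM, below 505.0, 551.5 and 210.0 in untreated dXist (log2 change -1.36, SE 0.44, edgeR adjusted p = 0.105; DESeq2 adjusted p = 0.0343). It lay below the untreated range, as 21.8% of all genes did, and Mtf2, at 156.4 and 67.3 CPM, was the 1 member above it (0.94, SE 0.37, edgeR adjusted p = 0.147; 20.3% of all genes). No treated library carries the label of untreated dXist library 3. Without that library, Rbbp4 passed (-1.68, edgeR adjusted p = 0.0457), as did 2.33% of 17800 genes. On leaving out each other library of these groups it ran from -1.66 to -1.11, with edgeR adjusted p of 0.0605 to 0.347.

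The treated dXist libraries differed from each other in most members. Library 1 held Ezh2 at 176.3, Suz12 at 640.2, Eed at 137.5 and Mtf2 at 156.4 CPM, while library 2 held them at 61.3, 235.5, 58.5 and 67.3 CPM. For Phf1 the order was the other way, 1.57 and 23.7 CPM, and Ezh1 was at 30.5 and 62.7 CPM. The log2 ratio of library 1 to library 2 fell with GC content across 9669 genes (Spearman -0.628), from a median of 0.598 in genes under 45% GC to -1.41 in genes of 55% or more. Members followed in part: Phf1 (GC 58.6%) had a ratio of -3.55, Ezh1 (51.2%) -1.03, Suz12 (41.6%) 1.44, Mtf2 (38.2%) 1.21 and Ezh2 (44.4%) 1.52. Phf19 (53.9%) at -1.15 and Aebp2 (40.9%) at 0.757 also followed. Rbbp4 (45.2%) at -0.483, Eed (47.8%) at 1.23 and Jarid2 (48.8%) at 0.683 did not. Their signs were opposite to the medians of all genes in their GC bins (0.166, -0.16 and -0.16). With a GC correction no member was called, and the log2 change on treatment was 0.24 for Ezh2, 0.22 for Suz12 and -0.11 for Mtf2. Without library 1 it was -0.12 for Ezh2, 0.10 for Suz12, 0.18 for Mtf2 and 0.17 for Phf1. Without library 2 these 4 passed edgeR's threshold (1.38, 1.53, 1.38 and -3.76), as did 4730 of 19827 genes (23.9%).

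**Figure D5:**
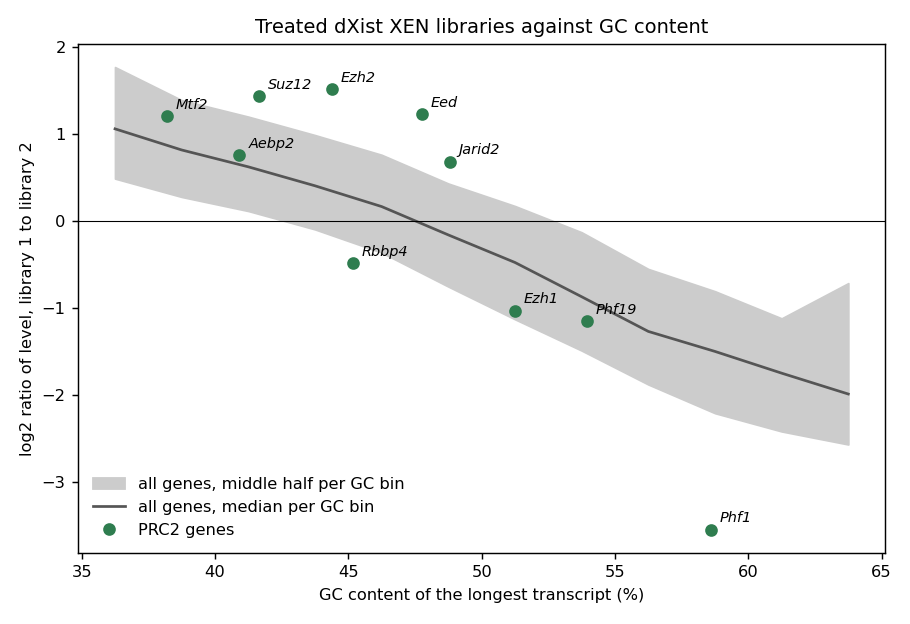
Log2 ratio of the level in library 1 to that in library 2 of treated dXist XEN against GC content of the longest transcript: PRC2 genes (points) over the median (line) and middle 50% (band) of all genes per GC bin. Phf1 lies lowest at -3.55 and Ezh2 highest at 1.52.

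The interaction of treatment and genotype called 0 of 10 members by edgeR (0.245% of genes) and 0 by DESeq2 (1.19%), with Ezh2 and Suz12 under an unadjusted p of 0.05 (8% of all genes). It was 2.21 on the log2 scale for Ezh2 (SE 0.66, edgeR adjusted p = 0.517), 1.85 for Suz12 and 1.22 for Mtf2. It combines the treated wild-type libraries, all total-like, with the treated dXist libraries that differ by GC content and in Xist. No member was called with a library type term over 13 libraries or with a GC correction. Across the pathway lists, no gene was called in either treatment comparison or in this interaction, apart from the endoderm marker Cubn in treated dXist (edgeR adjusted p = 0.0498).

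Profiles over all 13 libraries were compared by the root mean square difference of centred log2(CPM + 0.5), among 9424 protein-coding genes of at least 10 CPM on average. Nearest to Ezh1 were Setd4 (0.277), Serinc5 (0.301) and Fancg (0.307), against a median of 0.858 over all genes. Nearest to Ezh2 were Pds5b (0.276), Prpf38b (0.291) and Eif3a (0.292), against 0.994, and nearest to Jarid2 were Epb41l2 (0.194), Usp28 (0.256) and Caprin2 (0.259), against 1.20. No other PRC2 member was among these. The libraries share differences of library type and GC content, which enter such likeness.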

How the data were processed

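The authors deposited 1 table of read counts per gene, not normalized, for 13 mouse libraries. Per the submitters' processing notes the tools were STAR 2.7.9a, featureCounts 2.0.1 and FastQC, with build GRCm38 (mm10). Strand and multi-mapping options were not given in the sources used here. The extract protocol names Trizol RNA and NEBNext Ultra or TruSeq stranded kits, per the labels. Symbols, exon lengths and GC content came from GENCODE vM21, which matched 38240 of 38377 identifiers (99.64%).

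The main test was the robust quasi-likelihood test of edgeR 4.0.16 (R 4.3.3) after filterByExpr and TMM. Benjamini-Hochberg adjustment ran over all genes tested, with a call at an adjusted p under 0.05. Fits held the 9 untreated libraries, the 9 XEN libraries or the 4 EpiSC libraries, with 5, 5 and 2 residual degrees of freedom. There were 7 comparisons, 2 of them interactions. EpiSC against XEN and the interaction with cell type came from the fit of untreated libraries, and the others from the fit of their cell type. All 10 members passed the filter in each fit. Standard errors are the absolute log2 change over the square root of F. The procedure was tested on simulated counts. DESeq2 1.42.0 was an alternative, with RLE size factors, no filter, a replicate block, replicates left out, the compared groups alone, and library type as a term over all 13 libraries. A GC correction (lowess, span 0.3) and a library type term in EpiSC were added after the data were seen.

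The members and gene lists were chosen with earlier results of these data known. Named were all members, Rbbp7, Kdm6a and Xist, up to 4 called genes of each pathway list by adjusted p, and the 3 genes nearest in profile to Ezh1, Ezh2 and Jarid2. One result that met this rule is not reported here.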

Additional observations from a re-analysis of the deposited data

How the results depend on the processing

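The count of called members in wild-type EpiSC against XEN was 5, and 3 with a GC correction or with library type over 13 libraries. Leaving out 1 library gave 1 to 4 calls there. It was 1 without library 1 of wild-type XEN, 3 without library 2 and 2 without library 1 of wild-type EpiSC. In treated wild-type XEN the count rose from 0 to 1 in the compared groups alone. In treated dXist XEN it was 1 without a filter and with DESeq2. Leaving out 1 library gave 0 to 4 calls there, 1 without dXist library 3 and 4 without treated dXist library 2. The treatment interaction gave 1 call without a filter and 0 to 4 on leaving out 1 library, 4 of them without treated dXist library 2, where 8.1% of all genes were called. In dXist EpiSC the count was 2 without a filter, with DESeq2 and with library type as a term, with or without GC correction, and 0 on leaving out each library or with library type over 13 libraries. The deletion interaction gave 1 without a filter and with DESeq2, and 0 to 1 on leaving out 1 library. In dXist XEN it was 0 under all alternatives run.

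Replicate numbers do not show pairing: same-numbered deviations correlated at 0.747 in EpiSC, where the number coincides with library type, and at -0.128 to 0.0155 between wild-type and dXist XEN. Treated dXist libraries 1 and 2 carry the labels of untreated dXist libraries 1 and 2, and untreated library 3 has no treated counterpart. Between these same-labelled libraries the deviations correlated at -0.0298 and 0.0647. The labels do not say whether they shared a clone. With a replicate block the calls were 5 between cell types, 2 in dXist EpiSC, 1 in the deletion interaction and 0 elsewhere. Rbbp4 in treated dXist XEN was then at a log2 change of -1.69 (edgeR adjusted p = 0.0557). In the EpiSC fit this block is the same model as the library type term, so its 2 calls there are not a separate result.

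Of 333 alternative values for 27 named changes, 286 kept their direction and side of the threshold, 26 newly passed, 15 no longer passed and 6 reversed. These counts hold the replicate block and the library type term in EpiSC separately, although they are the same fit. Of 547 values for the other member changes, 460 kept both, 1 newly passed and 86 changed sign. On leaving out 1 library, Ezh2 ran from -0.486 to 1.22 between cell types and from -1.39 to 0.307 in dXist EpiSC, reversed without library 1 of wild-type EpiSC. In treated dXist XEN it ran from -0.122 to 1.38 and Phf1 from -3.76 to 0.167, reversed without treated library 1. Suz12 was 0.0354 in treated wild type with library type over 13 libraries, and Mtf2 -0.114 in treated dXist with GC correction. The cause of these changes was not tested. Phf19 had 1 to 22 counts per XEN library, which limits its fold.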
